A study of Mus musculus with 20 samples.

Results

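The MHC class II presentation genes are the genes with which a B cell builds class II molecules, loads them with peptide and switches on their transcription. They were taken by symbol: H2-Aa, H2-Ab1 and H2-Eb1 (the chains of the class II molecules), Cd74 (the invariant chain), H2-DMa, H2-DMb1 and H2-DMb2 (the chains of H2-DM, the peptide editor), H2-Oa and H2-Ob (the chains of H2-O, which inhibits H2-DM) and Ciita (the class II transactivator). Of the 10 members, 8 had a probe set of their own, and all 8 passed the filter on dim probe sets and were tested among 11968 genes. H2-DMb1 and H2-DMb2 share 1 probe set, which carries both symbols. It was left out of the counts of members and is described separately, and its values cannot be assigned to either gene.

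The study asked how B cells answer ligation of the B cell receptor with and without TAK1, a kinase encoded by Map3k7. RNA was measured on 20 arrays in 10 groups of 2. Each group held splenic B cells of C57BL/6 mice aged 8 to 12 weeks and of mixed sex, obtained by removing CD43-bearing cells on magnetic beads. The wild type groups are written mb-1/TAK1+/+ and the TAK1-deleted groups mb-1/TAK1f/f, so both genotypes carry mb-1, the older name of Cd79a, a B lineage gene of the B cell receptor complex. What mb-1 drives is not stated, and cells outside the B lineage that remained after the depletion need not have lost TAK1. The cells were unstimulated (0 h) or had been exposed for 1, 3, 6 or 24 h to 10 µg/ml of an antibody against IgM that cross-links the receptor (anti-IgM). It is not stated if unstimulated cells spent time in culture, which changes from 0 h can therefore reflect too. Nothing says whether the replicates came from separate mice, so p-values measure the spread between these arrays, which may be technical.

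A class II molecule is assembled in the endoplasmic reticulum as an α and a β chain around the invariant chain, which blocks the groove and directs the complex to endosomes. There proteases trim the invariant chain to the fragment CLIP, H2-DM exchanges CLIP for peptides of the antigens that the B cell receptor has taken up, and H2-O, found mainly in B cells, restrains that exchange. The genes share a promoter module in which an X box is bound by the RFX complex and a Y box by NF-Y, and CIITA, which does not bind DNA itself, joins this assembly and sets how much is transcribed.

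RefSeq promoter sequence (GRCm38.p6) was used for 7 of the members, from 250 bases before to 50 bases after the start of transcription. H2-Ab1, Cd74 and Ciita are named here without it. Any entry for Cd74 was left out by choice, so the counts below do not cover that gene. The 150 bases before the start are shown for 6 of these members, 5′ to 3′ on the strand of the gene, because 5 of them share an arrangement of letters. H2-DMa is not shown, and neither of its 2 listed starts has that arrangement. Capitals mark the letters ATTGG, the core of a Y box (a CCAAT sequence on the other strand), and, upstream of it, GNAAC, letters found in many X boxes.
H2-Eb1 (chr17:34305717-34305866, plus strand): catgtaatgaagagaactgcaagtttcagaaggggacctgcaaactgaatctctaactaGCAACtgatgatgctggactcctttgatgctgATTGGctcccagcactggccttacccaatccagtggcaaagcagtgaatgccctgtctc
H2-Aa (chr17:34287824-34287973, minus strand): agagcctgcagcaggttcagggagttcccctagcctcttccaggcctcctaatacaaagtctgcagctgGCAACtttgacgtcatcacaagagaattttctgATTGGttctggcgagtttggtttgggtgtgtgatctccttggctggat
H2-Ob (chr17:34238755-34238904, plus strand): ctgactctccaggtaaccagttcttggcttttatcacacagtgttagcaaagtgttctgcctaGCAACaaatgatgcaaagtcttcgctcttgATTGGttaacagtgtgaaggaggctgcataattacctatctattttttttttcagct
H2-Oa (chr17:34092229-34092378, plus strand): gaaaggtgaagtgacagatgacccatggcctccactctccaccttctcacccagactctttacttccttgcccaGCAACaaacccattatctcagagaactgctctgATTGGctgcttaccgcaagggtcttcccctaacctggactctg
H2-DMb1 (chr17:34153041-34153190, plus strand): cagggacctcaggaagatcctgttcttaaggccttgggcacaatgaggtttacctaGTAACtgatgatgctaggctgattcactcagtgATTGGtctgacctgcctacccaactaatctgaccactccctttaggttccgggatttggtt
H2-DMb2 (chr17:34145099-34145248, plus strand): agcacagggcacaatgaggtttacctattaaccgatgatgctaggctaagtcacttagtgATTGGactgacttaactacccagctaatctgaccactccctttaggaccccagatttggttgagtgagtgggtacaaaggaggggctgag
In 5 of the 7 members, GNAAC was followed by ATTGG with 30 to 34 bases from the first letter of one to the first letter of the other. These were H2-Oa, H2-Ob, H2-Aa, H2-Eb1 and H2-DMb1. The distance was 33 bases in H2-Aa, H2-Oa and H2-DMb1, 32 in H2-Eb1 and 30 in H2-Ob. The same arrangement, searched on both strands without overlap of the motifs, was present in 281 of 32851 promoters of that length, or 0.855%. ATTGG alone was found in 37.4% of them and GNAAC alone in 84.8%. H2-DMb2 had ATTGG but no GNAAC at that distance, and the 2 listed starts of H2-DMa had no such pair. The letters and the distance were chosen after the member sequences had been seen, and a match is a description of the sequence only.

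Before stimulation the members differed by no more than 0.10 on the log2 scale between the genotypes, and none of these differences was called. From 0 to 24 h they fell by amounts that differed widely between them, and they kept 3 kinds of time course. Ciita was lower from 1 h on. The genes of H2-DM and H2-O were lower from 3 h on. The α and β chains and Cd74 held near their 0 h values through the early times and were lower at 24 h in both genotypes. H2-Ab1 was already lower at 6 h in TAK1-deleted samples, a call lost without some single arrays. The TAK1-deleted call of Cd74 at 24 h was near the threshold. Changes are log2 differences ± standard error from limma with 2 arrays per group, and a gene was called at an adjusted p below 0.05, with the Benjamini-Hochberg adjustment over all genes tested. A gene is said to have risen, fallen, or been higher or lower only where it was called. Levels are RMA values on the log2 scale, and the level of one probe set is not set against that of another.

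**Figure D1:**
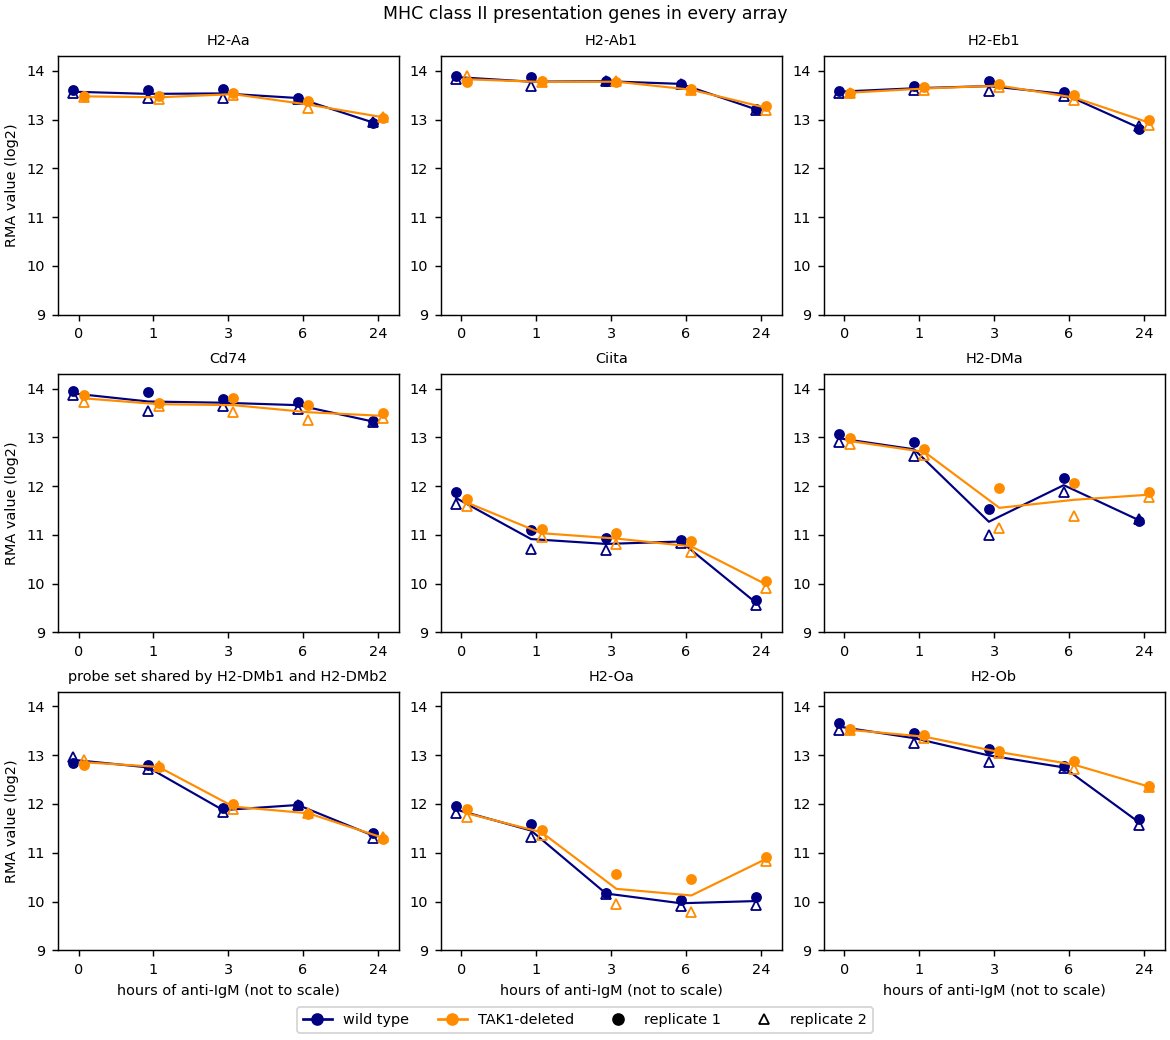
Level of each member (log2 RMA value) against hours of anti-IgM, with wild type in blue, TAK1-deleted in orange, a filled circle for replicate 1, an open triangle for replicate 2 and a line through the group means of 2 arrays. Ciita fell in steps to 9.56 to 10.06 at 24 h, H2-Aa, H2-Ab1, H2-Eb1 and Cd74 stayed between 13.24 and 13.94 through 6 h and were lower at 24 h, and H2-Oa and H2-Ob ended higher in TAK1-deleted than in wild type samples.

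Ciita, the transactivator on which the rest of the pathway depends, had the largest range of group means among the members in wild type cells, 2.14 on the log2 scale. In wild type samples it read 11.87 and 11.64 at 0 h, 11.11 and 10.72 at 1 h, 10.94 and 10.69 at 3 h, 10.89 and 10.84 at 6 h, then 9.67 and 9.56 at 24 h. In TAK1-deleted samples it read 11.73 and 11.60, 11.12 and 10.95, 11.04 and 10.81, 10.88 and 10.65, and 10.06 and 9.91 at the same times. In both genotypes every stimulated array was below every 0 h array, the arrays of neighbouring times among 1, 3 and 6 h overlapped, and those of 24 h lay below all others.

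The fall in Ciita at 1 h was -0.84 ± 0.15 in wild type (adjusted p = 0.00058), which left 55.8% of the 0 h level, and -0.63 ± 0.15 in TAK1-deleted samples (adjusted p = 0.00652). It was the only member called at 1 h in either genotype. At 3 and 6 h the change stayed between -0.74 and -0.94 in both. By 24 h it was -2.14 ± 0.15 in wild type (adjusted p = 1.6e-08) and -1.68 ± 0.15 in TAK1-deleted samples (adjusted p = 4.74e-07), leaving 22.6% and 31.2% of the 0 h level. Without replicate 1 of the TAK1-deleted 0 h group the 1 h change in that genotype was -0.56 (adjusted p = 0.0652), and without replicate 2 of its 1 h group -0.55 (adjusted p = 0.0711).

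The genes of the class II α and β chains had like courses over the 5 times. H2-Ab1, the β chain of I-A, read 13.90 and 13.84 at 0 h, 13.87 and 13.68 at 1 h, 13.78 and 13.79 at 3 h, 13.73 and 13.73 at 6 h, then 13.22 and 13.20 at 24 h in wild type samples. The TAK1-deleted samples read 13.76 and 13.89, 13.78 and 13.76, 13.77 and 13.78, 13.62 and 13.60, and 13.28 and 13.20. Only the 24 h arrays stood well apart, and the genotypes overlapped there. The change at 24 h was -0.66 ± 0.07 in wild type (adjusted p = 1.12e-06) and -0.59 ± 0.07 in TAK1-deleted samples (adjusted p = 8.42e-06), or 63.3% and 66.6% of the level at 0 h.

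H2-Eb1, the β chain of I-E, read 13.59 and 13.55 at 0 h, 13.68 and 13.60 at 1 h, 13.79 and 13.58 at 3 h, 13.56 and 13.49 at 6 h, then 12.80 and 12.87 at 24 h in wild type samples. In TAK1-deleted samples it read 13.55 and 13.55, 13.67 and 13.60, 13.73 and 13.66, 13.50 and 13.40, and 12.99 and 12.88. It was the one member with values above 0 h at 1 and 3 h in both genotypes, by 0.07 to 0.14, and none of these differences was called. With the replicate number as a block in the fit, the 3 h difference in TAK1-deleted samples was called (0.14, adjusted p = 0.0481). At 24 h it had changed by -0.73 ± 0.08 in wild type (adjusted p = 1.25e-06) and by -0.62 ± 0.08 in TAK1-deleted samples (adjusted p = 1.6e-05).

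H2-Aa, the α chain of I-A, kept the same course. Its arrays ran from 13.43 to 13.62 in wild type and from 13.24 to 13.54 in TAK1-deleted samples at 0 to 6 h, and the 24 h arrays, at 12.93 and 12.95 and at 13.03 and 13.06, were below all of these. The change at 24 h was -0.63 ± 0.07 (adjusted p = 4.86e-06) in wild type and -0.43 ± 0.07 (adjusted p = 0.000398) in TAK1-deleted samples. The difference between these changes, 0.20 with a 95% interval of -0.03 to 0.42, was not called (adjusted p = 0.344). H2-Ab1 also fell at 6 h in TAK1-deleted samples, by -0.22 ± 0.07 (adjusted p = 0.0198). That call was lost without each of 3 arrays in turn, at -0.15 (adjusted p = 0.196) without replicate 2 of the TAK1-deleted 0 h group and at -0.23 and -0.21 without replicate 1 or 2 of its 6 h group (adjusted p = 0.0613 and 0.0952). It was also lost with no filter on dim probe sets (adjusted p = 0.0517) and without the intensity trend (adjusted p = 0.111). The wild type value for H2-Ab1 at 6 h was -0.14 ± 0.07 (adjusted p = 0.107). With the block H2-Aa was called at 6 h in TAK1-deleted samples as well (-0.17, adjusted p = 0.0218).

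A probe set for H2-Ea, the partner of H2-Eb1 that RefSeq lists as a pseudogene, read 5.58 to 6.19 and did not pass the filter. Mice of the C57BL/6 background are known to make no Eα chain and to carry I-A but no I-E on the cell surface, so the transcript of H2-Eb1 was measured where its product is not known to be displayed.

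Cd74, the invariant chain and the precursor of CLIP, changed least, with a range of group means of 0.57 in wild type samples. It read 13.94 and 13.86 at 0 h, 13.93 and 13.54 at 1 h, 13.78 and 13.64 at 3 h, 13.73 and 13.59 at 6 h, then 13.34 and 13.31 at 24 h in wild type, and 13.87 and 13.73, 13.71 and 13.65, 13.80 and 13.52, 13.67 and 13.36, and 13.49 and 13.39 in TAK1-deleted samples. Replicate 1 was above replicate 2 in 10 of 10 groups, and the arrays of the early times overlapped. At 24 h the change was -0.57 ± 0.13 in wild type (adjusted p = 0.00142). The TAK1-deleted change of -0.36 ± 0.13 was near the threshold (adjusted p = 0.0411) and was not called without any 1 of the 4 arrays involved, with -0.29 (adjusted p = 0.218) and -0.43 (0.0639) without replicate 1 or 2 of the 0 h group and -0.41 (0.0903) and -0.31 (0.201) without replicate 1 or 2 of the 24 h group. It was also not called with no filter, without the intensity trend or with all probe sets in one fit (adjusted p = 0.0664, 0.0814 and 0.0966). With the block, Cd74 was also called in wild type at 3 h (-0.19, adjusted p = 0.0344) and 6 h (-0.24, adjusted p = 0.00839) and in TAK1-deleted samples at 6 h (-0.28, adjusted p = 0.00309), where it was also called without replicate 1 of the 6 h group (-0.44, adjusted p = 0.0297). The highest values on the 20 arrays were 14.54 to 14.68, and whether changes of genes this bright are compressed was not tested.

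H2-DMa, the α chain of the peptide editor, fell earlier than the class II chains themselves. In wild type samples it read 13.06 and 12.90 at 0 h, 12.90 and 12.61 at 1 h, 11.54 and 11.00 at 3 h, 12.17 and 11.87 at 6 h, then 11.28 and 11.33 at 24 h. In TAK1-deleted samples it read 12.99 and 12.86, 12.77 and 12.63, 11.96 and 11.15, 12.06 and 11.38, and 11.87 and 11.78. All arrays of 3, 6 and 24 h were below those of 0 and 1 h. The replicates of the TAK1-deleted 3 h group lay 0.81 apart, the widest gap among the members, and overlapped with those of 6 and 24 h.

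At 3 h H2-DMa had changed by -1.71 ± 0.24 in wild type (adjusted p = 2.81e-05) and by -1.37 ± 0.24 in TAK1-deleted samples (adjusted p = 0.000254), to 30.6% and 38.6% of the 0 h level. At 6 h the changes were -0.96 ± 0.24 (adjusted p = 0.00408) and -1.21 ± 0.24 (adjusted p = 0.000922). The wild type mean at 6 h was above that at 3 h, a step that was not among the tested contrasts. At 24 h the changes were -1.68 ± 0.24 (adjusted p = 3.43e-05) and -1.10 ± 0.24 (adjusted p = 0.00277).

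The probe set shared by H2-DMb1 and H2-DMb2, the β chains that pair with the product of H2-DMa, read 12.84 and 12.97 at 0 h, 12.79 and 12.71 at 1 h, 11.92 and 11.83 at 3 h, 11.98 and 11.98 at 6 h, then 11.40 and 11.31 at 24 h in wild type samples. The TAK1-deleted samples read 12.80 and 12.91, 12.75 and 12.77, 11.99 and 11.90, 11.80 and 11.82, and 11.29 and 11.32. The genotypes overlapped at 24 h. In a fit of all 35556 probe sets, wild type changes were -1.03 ± 0.08 at 3 h, -0.92 ± 0.08 at 6 h and -1.55 ± 0.08 at 24 h (adjusted p = 6.9e-07, 1.78e-06 and 1.81e-08). In that fit 9.58%, 8.26% and 9.08% of all probe sets were lower at these times. TAK1-deleted changes were -0.91, -1.04 and -1.55 (adjusted p = 2.64e-06, 8.35e-07 and 4.05e-08), where 8.56%, 6.91% and 5.88% were lower. Its difference between genotypes at 24 h was -0.05 with a 95% interval of -0.21 to 0.12. For H2-DMa, in the fit of genes tested, the difference was 0.52 with an interval of 0.01 to 1.04 and was not called. Whether these differences are unlike was not tested.

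H2-Oa, the α chain of the inhibitor H2-O, had the largest fall of the members at 6 h in both genotypes. In wild type samples it read 11.95 and 11.82 at 0 h, 11.58 and 11.33 at 1 h, 10.18 and 10.15 at 3 h, 10.03 and 9.90 at 6 h, then 10.09 and 9.93 at 24 h. In TAK1-deleted samples it read 11.89 and 11.73, 11.47 and 11.37, 10.56 and 9.96, 10.46 and 9.79, and 10.92 and 10.83. The wild type arrays stayed low from 3 h to 24 h, while both TAK1-deleted arrays at 24 h were above all 3 h and 6 h arrays of either genotype.

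The change of H2-Oa was -1.72 ± 0.20 at 3 h, -1.92 ± 0.20 at 6 h and -1.88 ± 0.20 at 24 h in wild type (adjusted p = 3.68e-06, 1.08e-06 and 1.47e-06). It was -1.55 ± 0.20, -1.69 ± 0.20 and -0.93 ± 0.20 in TAK1-deleted samples (adjusted p = 1.22e-05, 6.47e-06 and 0.00219). The wild type level at 24 h was thus 27.2% of that at 0 h and the TAK1-deleted level 52.4%. At 1 h the changes of -0.43 ± 0.20 and -0.39 ± 0.20 were not called (adjusted p = 0.137 and 0.212), and both were called with the block (adjusted p = 0.0116 and 0.024).

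H2-Ob, the β chain of H2-O, was lower at 3, 6 and 24 h in both genotypes. Wild type samples read 13.65 and 13.52 at 0 h, 13.45 and 13.25 at 1 h, 13.12 and 12.87 at 3 h, 12.77 and 12.73 at 6 h, then 11.69 and 11.57 at 24 h. TAK1-deleted samples read 13.53 and 13.51, 13.41 and 13.35, 13.08 and 13.05, 12.89 and 12.72, and 12.36 and 12.35. No array of a later time reached one of an earlier time within a genotype, and the genotypes were apart at 24 h. The change was -0.59 ± 0.10, -0.84 ± 0.10 and -1.96 ± 0.10 at 3, 6 and 24 h in wild type (adjusted p = 0.000107, 3.26e-06 and 3.89e-10) and -0.45 ± 0.10, -0.71 ± 0.10 and -1.17 ± 0.10 in TAK1-deleted samples (adjusted p = 0.00122, 2.48e-05 and 2.2e-07). The wild type value at 1 h, -0.24 ± 0.10, was not called (adjusted p = 0.082). It was called with the block (adjusted p = 0.00584) and without replicate 1 of the wild type 1 h group (-0.34, adjusted p = 0.0413).

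**Figure D2:**
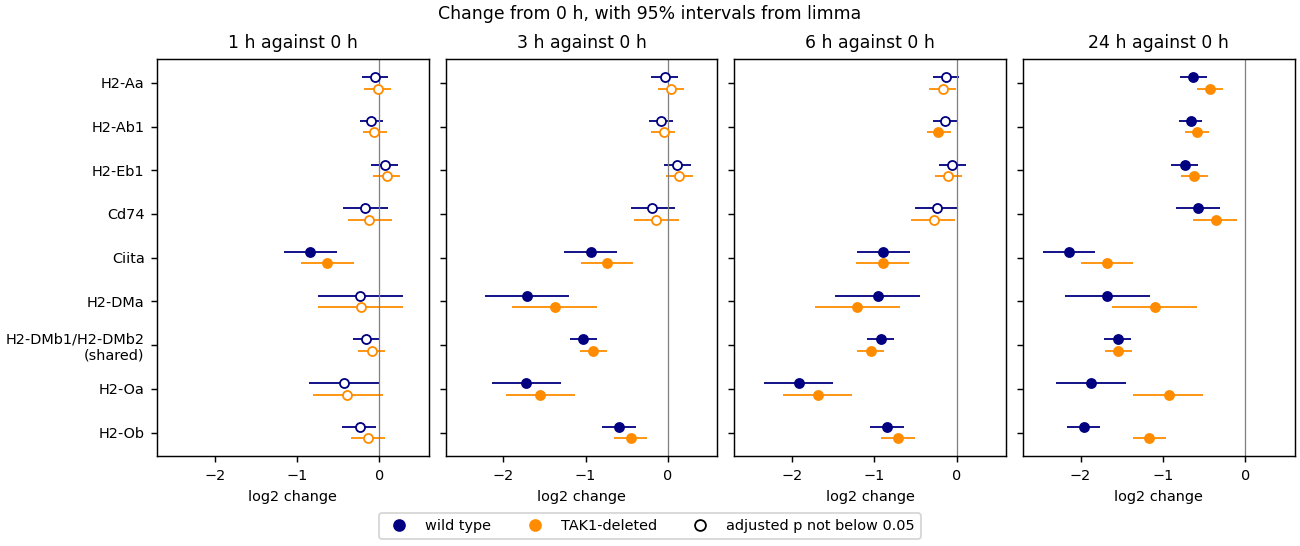
Log2 change from 0 h of each member (rows) at 1, 3, 6 and 24 h (panels), with wild type in blue and TAK1-deleted in orange; points are limma estimates from 2 arrays per group, bars their 95% intervals, and open points have an adjusted p that is not below 0.05. At 1 h only Ciita was called, and at 24 h all points lie below 0, from -0.36 for Cd74 in TAK1-deleted to -2.14 for Ciita in wild type samples.

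Counted over the 8 members tested, 1 was lower at 1 h in wild type samples, against 13.9% of all genes tested, and 4 at 3 h, against 23.2%. These 4 (H2-DMa, H2-Oa, H2-Ob and Ciita) were also the ones lower at 6 h, against 19.1% of all genes, and all 8 were lower at 24 h, against 20.2%. In TAK1-deleted samples 1 was lower at 1 h (10.2% of all genes), 4 at 3 h (22.1%), 5 at 6 h (17.3%) and 8 at 24 h (12.7%). No member was called higher than at 0 h at any of these times in either genotype, except H2-Eb1 at 3 h with the block or quantile normalization and H2-Aa at 3 h with quantile normalization. The median change of the members was -1.21 in wild type and -0.77 in TAK1-deleted samples at 24 h, beside 0.07 and 0.04 over all genes tested. At 1 h their median was -0.20 and -0.13, beside -0.05 and -0.03.

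Between the genotypes, none of the 8 members was called at 0, 1, 3 or 6 h by limma, and 0 had an unadjusted p below 0.05 at any of these times. Over all genes 2.32%, 4.28%, 2.71% and 2.53% were called in either direction. The members' differences lay between -0.10 and -0.02 at 0 h and between -0.30 and 0.28 over the other 3 times, and the 95% interval of the widest, H2-DMa at 6 h, was -0.82 to 0.21. The probe set of Map3k7 itself gave similar levels in both genotypes. Which part of the gene was deleted is not stated, so it does not check the genotype.

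At 24 h the 2 chains of H2-O were higher in TAK1-deleted samples, 2 of 8 members against 12.2% of all genes called in either direction and 7.04% called higher. H2-Ob was 0.73 ± 0.10 higher (adjusted p = 0.000124), a 1.66-fold level, and H2-Oa 0.87 ± 0.20 higher (adjusted p = 0.00847), a 1.83-fold level. Both TAK1-deleted arrays were above both wild type arrays for each. Taken by replicate number, H2-Oa was 0.83 and 0.91 higher and H2-Ob 0.67 and 0.78 higher. H2-Oa was not called without replicate 1 of the TAK1-deleted 24 h group (0.83, adjusted p = 0.0688) or replicate 2 of the wild type 24 h group (0.79, adjusted p = 0.0609).

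All 8 members had a TAK1-deleted mean above the wild type mean at 24 h. Ciita differed by 0.37 ± 0.15 (adjusted p = 0.128) and H2-DMa by 0.52 ± 0.24 (adjusted p = 0.2), neither of them called, and in both cases both TAK1-deleted arrays were above both wild type arrays. With the block both were called, at adjusted p = 0.0023 and 0.0117, and 4 members were then called, beside 28.8% of all genes. The class II chains and Cd74 differed by 0.03 to 0.11, and the 95% intervals were -0.06 to 0.26 for H2-Aa, -0.12 to 0.17 for H2-Ab1, -0.07 to 0.26 for H2-Eb1 and -0.16 to 0.38 for Cd74. An interval that holds 0 does not show that the genotypes are alike.

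**Figure D3:**
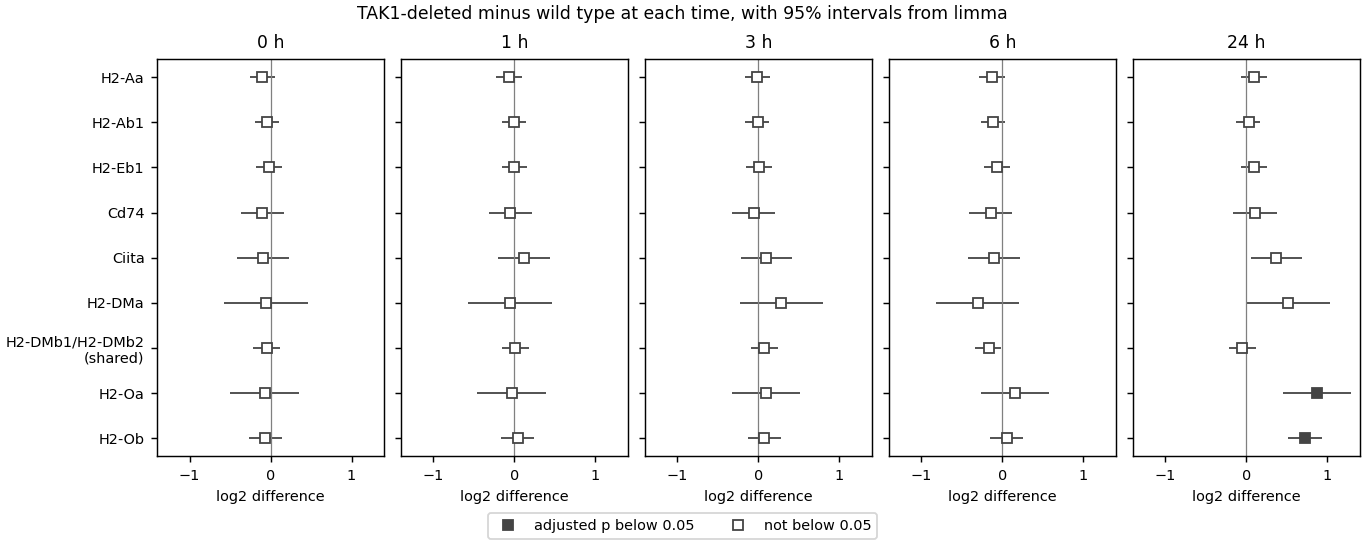
TAK1-deleted minus wild type (log2) for each member (rows) at 0, 1, 3, 6 and 24 h (panels); squares are limma estimates from 2 arrays per group, bars their 95% intervals, and filled squares have an adjusted p below 0.05. The only filled squares are H2-Oa (0.87) and H2-Ob (0.73) at 24 h.

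The change from 0 h was also compared between the genotypes directly. At 1, 3 and 6 h no member was called and 0 had an unadjusted p below 0.05, with 0.109%, 0.0585% and 0.284% of all genes called. The differences at these times lay between -0.25 and 0.34. At 24 h 8.66% of all genes were called, and 2 of the 8 members were. The fall of H2-Ob was 0.80 ± 0.14 smaller in TAK1-deleted than in wild type samples (adjusted p = 0.0015). That of H2-Oa was 0.94 ± 0.28 smaller, just under the threshold (adjusted p = 0.0489), and the call was lost without any 1 of the 8 arrays of these groups (0.86 to 1.02, adjusted p up to 0.142). For Ciita the difference of 0.46 ± 0.21 was not called (adjusted p = 0.237) and was called with the block (adjusted p = 0.00796) and with quantile normalization (0.47, adjusted p = 0.0196). The other differences, none of them called, were 0.58 for H2-DMa, 0.21 for Cd74, 0.20 for H2-Aa, 0.12 for H2-Eb1 and 0.07 for H2-Ab1.

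From 6 to 24 h, 6 of 8 members fell in wild type samples, against 10.4% of all genes. These were the 3 class II chains, H2-DMa, H2-Ob and Ciita. Ciita changed by -1.26 ± 0.15 (adjusted p = 1.64e-05), H2-Ob by -1.12 ± 0.10 (adjusted p = 6.48e-07) H2-Eb1 by -0.68 ± 0.08 (adjusted p = 8.65e-06), H2-Ab1 by -0.52 ± 0.07 (adjusted p = 4.47e-05) and H2-Aa by -0.50 ± 0.07 (adjusted p = 0.000162). H2-DMa changed by -0.72 ± 0.24 at an adjusted p of 0.0496, and was not called without any 1 of the 4 arrays (-0.56 without replicate 1 and -0.87 without replicate 2 of the 6 h group, -0.69 and -0.74 without replicate 1 or 2 of the 24 h group, adjusted p up to 0.308). Nor was it called with no filter, without the intensity trend or with all probe sets in one fit (adjusted p = 0.0734, 0.0571 and 0.152). Cd74, at -0.33 ± 0.13, was not called (adjusted p = 0.0781) and was with the block (adjusted p = 0.00136) and with quantile normalization (-0.36, adjusted p = 0.01). H2-Oa, at 0.05 ± 0.20, was not called.

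In TAK1-deleted samples 5 members fell from 6 to 24 h, against 8.05% of all genes, and H2-Oa rose, against 10.8%. The fall was -0.78 ± 0.15 for Ciita (adjusted p = 0.00145), -0.52 ± 0.08 for H2-Eb1 (adjusted p = 0.000164), -0.45 ± 0.10 for H2-Ob (adjusted p = 0.00339), -0.37 ± 0.07 for H2-Ab1 (adjusted p = 0.00113) and -0.26 ± 0.07 for H2-Aa (adjusted p = 0.0215). H2-Oa rose by 0.76 ± 0.20 (adjusted p = 0.0136), to 169% of the 6 h level, the only rise called for a member over time beside those of H2-Eb1 and H2-Aa at 3 h under the block or quantile normalization. Its 6 h replicates were 10.46 and 9.79, and without the lower one the rise was 0.42 (adjusted p = 0.227). Without replicate 1 or 2 of the 24 h group it was 0.71 (adjusted p = 0.0902) or 0.80 (adjusted p = 0.0561). H2-Aa was not called without replicate 1 of the 6 h group (-0.20, adjusted p = 0.192) or replicate 1 or 2 of the 24 h group (-0.25 and -0.28, adjusted p = 0.12 and 0.0782), nor H2-Ob without replicate 1 of the 6 h group (-0.36, adjusted p = 0.0548). H2-Aa was also not called with no filter, without the intensity trend or with all probe sets in one fit (adjusted p = 0.0509, 0.0978 and 0.0513). Cd74 and H2-DMa, at -0.08 ± 0.13 and 0.11 ± 0.24, were not called (adjusted p = 0.77 and 0.851).

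The step from 6 to 24 h differed between the genotypes for H2-Ob, by 0.67 ± 0.14 (adjusted p = 0.00945), 1 of 8 members against 3.87% of all genes. It was not called without replicate 1 of the wild type 6 h group (0.65, adjusted p = 0.051) or replicate 2 of the TAK1-deleted 6 h group (0.58, adjusted p = 0.0654). For H2-Oa the difference was 0.71 ± 0.28 (adjusted p = 0.261), and it was 1.05 (adjusted p = 0.0415) without replicate 1 and 0.37 (adjusted p = 0.955) without replicate 2 of the TAK1-deleted 6 h group. The differences of the class II chains and Cd74 lay between 0.15 and 0.25 and were not called. With the block H2-DMa (0.82), H2-Oa (0.71) and Ciita (0.47) were also called, at adjusted p of 0.0126, 0.014 and 0.0122, beside 10.6% of all genes.

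Across the 10 group means the members fell into patterns. H2-Aa, H2-Ab1 and H2-Eb1 correlated with each other at r of 0.964 to 0.986, and H2-DMa with H2-Oa at 0.917. H2-Oa correlated with the 3 class II chains at 0.264 to 0.417 only. Ciita correlated with Cd74 at 0.95, with H2-Ob at 0.941, with the 3 class II chains at 0.805 to 0.919 and with H2-Oa at 0.633. H2-Ob correlated with those chains at 0.857 to 0.913, with H2-DMa at 0.751 and with H2-Oa at 0.702. These are descriptions over means that share arrays and a time course, and replicate 1 was above replicate 2 in 10 of 10 groups for H2-Oa, H2-Ob, Cd74 and Ciita.

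The genes most like the mean of H2-Aa, H2-Ab1, H2-Eb1 and Cd74, by Pearson's r over the 10 group means among 4575 genes spanning at least 1 log2 unit, were Ugcg (0.964), which makes glucosylceramide, Dennd2d (0.959), Mirt1 (0.954), Kansl1l (0.948) and Dnase1l3 (0.947), a DNase. Over the 20 arrays only Dnase1l3 stayed among the 5 most alike. Most like Ciita were Dennd2d (0.975), Zfp652 (0.974), Itgax (0.973), which encodes the integrin CD11c, Cxcl9 (0.972), a chemokine, and Icam2 (0.961), an adhesion molecule. Over the arrays 4 of these 5 were kept.

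Among 16 tested regulators of class II transcription, 10 were lower and 2 higher at 24 h in wild type samples, against 20.2% of all genes lower and 23.6% higher. In TAK1-deleted samples 6 were lower and 2 higher, against 12.7% and 14.9%. Their medians were -0.51 and -0.21. With 1 array left out, 7 to 10 were lower in wild type and 4 to 6 in TAK1-deleted samples. Of the RFX genes, whose products bind the X box, Rfx5 changed by -1.01 ± 0.23 in wild type (adjusted p = 0.00168), Rfxank by -0.49 ± 0.15 (adjusted p = 0.0125), and Rfxap gave -0.01 ± 0.12 (adjusted p = 0.975). Rfxank was not called without replicate 1 of the wild type 0 h or replicate 2 of its 24 h group (adjusted p up to 0.16). In TAK1-deleted samples Rfx5 changed by -0.72 ± 0.23 (adjusted p = 0.026) and was not called without replicate 1 of the 0 h group (-0.52) or replicate 1 or 2 of the 24 h group (-0.76 and -0.68). The 3 genes of NF-Y, which binds the Y box, were not called in wild type samples, with -0.09 to 0.05.

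Other regulators moved earlier. Irf4, a factor of activated B cells, was higher from 1 h on and furthest above 0 h at 1 h. In wild type samples the change was 2.10 ± 0.14 at 1 h, 1.52 ± 0.14 at 6 h and 0.90 ± 0.14 at 24 h (adjusted p = 1.55e-08, 2.69e-07 and 6.61e-05). In TAK1-deleted samples it was 2.24 ± 0.14, 1.69 ± 0.14 and 1.48 ± 0.14 (adjusted p = 1.03e-08, 1.36e-07 and 8.58e-07). The genotype difference in the change at 24 h, 0.58 ± 0.20, was not called (adjusted p = 0.0839). Pax5, which maintains B cell identity, changed by -1.23 ± 0.10 at 6 h in wild type (adjusted p = 1.01e-07) and by -0.94 ± 0.10 at 24 h in TAK1-deleted samples (adjusted p = 3.73e-06). These 2 values of Pax5 are from unlike times and do not compare the genotypes. Irf2, an interferon regulatory factor, changed by -1.13 ± 0.14 at 6 h and -0.93 ± 0.14 at 24 h in wild type (adjusted p = 9.68e-06 and 7.15e-05). Spi1, which encodes the factor PU.1, changed by -1.20 ± 0.16 and -1.11 ± 0.16 at these times (adjusted p = 1.66e-05 and 3.65e-05). Bcl6, a repressor of germinal centre B cells, changed by -2.78 ± 0.19 at 24 h in wild type (adjusted p = 1.64e-08) and by -1.46 ± 0.19 in TAK1-deleted samples (adjusted p = 3.42e-05).

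Prdm1, whose product represses Ciita in plasma cells, rose at 1 h, by 1.95 ± 0.28 in wild type (3.86-fold, adjusted p = 8.08e-05) and by 1.70 ± 0.28 in TAK1-deleted samples (3.24-fold, adjusted p = 0.000382). Ciita was also first lower at 1 h, and a link between the 2 genes was not tested. At 3 h Prdm1 was called in TAK1-deleted samples (1.11 ± 0.28, adjusted p = 0.00452) and not in wild type (0.65 ± 0.28, adjusted p = 0.0735), and at 6 h in neither. The 3 h call was lost without replicate 1 of the TAK1-deleted 3 h or replicate 2 of its 0 h group. At 24 h the wild type value was -0.77 ± 0.28 (adjusted p = 0.0373), a call lost with no filter and without replicate 1 of the 0 h group or either replicate of the 24 h group.

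Between genotypes at 24 h 2 of the 16 regulators were higher in TAK1-deleted samples and 0 lower, against 7.04% and 5.18% of all genes. They were Bcl6 (1.01 ± 0.19, adjusted p = 0.00267) and Spi1 (0.57 ± 0.16, adjusted p = 0.0289), and Spi1 was not called without any 1 of the 4 arrays (0.45 to 0.69, adjusted p up to 0.226). With the block 6 were higher, where 28.8% of all genes were called in either direction.

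Of 17 tested genes of endosomal processing and class II turnover, 9 were lower and 2 higher at 24 h in wild type samples, against 20.2% and 23.6% of all genes. In TAK1-deleted samples 6 were lower and 2 higher, against 12.7% and 14.9%. With the block 9 were lower, and the share of all genes with it is not given. At 6 h in wild type Ctsb, which encodes the protease cathepsin B, changed by -1.73 ± 0.12 (adjusted p = 1.62e-08), Marchf1, the ligase that ubiquitinates class II molecules, by -1.37 ± 0.12 (adjusted p = 2.77e-07), Ctsd, which encodes cathepsin D, by -1.15 ± 0.14 (adjusted p = 5.33e-06) and Cd82, a tetraspanin, by -1.10 ± 0.09 (adjusted p = 5.47e-08). At 24 h in wild type Marchf1 had changed by -1.52 ± 0.12 (adjusted p = 9.79e-08), Lgmn, an endosomal protease, by -1.48 ± 0.12 (adjusted p = 1.29e-07), and Ifi30, which reduces disulphide bonds of antigens, by -1.30 ± 0.18 (adjusted p = 2.58e-05). Cd63, a protein of late endosomes, rose by 1.39 ± 0.26 (adjusted p = 0.000434), and by 0.80 to 1.97 with 1 array left out. In TAK1-deleted samples at 24 h Cd63 rose by 1.88 ± 0.26, and Marchf1, Cd82 and Ifi30 changed by -1.26 ± 0.12, -1.18 ± 0.09 and -0.81 ± 0.18.

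At 24 h 7 of the 17 processing genes were higher in TAK1-deleted than in wild type samples and 0 lower (1 with the block), against 7.04% and 5.18% of all genes. They included the proteases Ctsl (1.59 ± 0.12, adjusted p = 1.09e-06) and Ctsd (1.07 ± 0.14, adjusted p = 9.8e-05), Ifi30 (0.95 ± 0.18, adjusted p = 0.00262) and Lgmn (0.81 ± 0.12, adjusted p = 0.000452). The count was 4 without replicate 1 of the TAK1-deleted or replicate 2 of the wild type 24 h group. Ctsl was also higher at 0 h (0.60 ± 0.12, adjusted p = 0.015), a call lost without replicate 1 or 2 of the wild type or replicate 1 of the TAK1-deleted 0 h group (0.47 to 0.65, adjusted p up to 0.211). Several of these genes are also abundant in macrophages.

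Of the genes of MHC class I presentation 16 were tested. H2-K1, H2-D1 and H2-T23 were listed but not tested, so the counts and the median do not cover them. In wild type samples 8 were lower at 1 h, against 13.9% of all genes, and 7 at 3 h, against 23.2%. In TAK1-deleted samples 5 were lower at 1 h (10.2% of all genes) and 8 at 3 h (22.1%). In each genotype 1 was higher at 3 h. At 24 h the shares in wild type were near or below those of all genes, with 3 higher and 3 lower against 23.6% and 20.2%, and a median of 0.19. With the block 7 were higher, and the share of all genes with it is not given. Psme2, a proteasome activator subunit, rose by 0.69 ± 0.14 at 6 h and 0.86 ± 0.14 at 24 h in wild type (adjusted p = 0.000957 and 0.000134). H2-M3, a class Ib molecule, changed by -1.09 ± 0.19 and -1.19 ± 0.19 at these times (adjusted p = 0.000249 and 0.000108), and Psmb10, an immunoproteasome subunit, by -0.64 ± 0.14 and -0.69 ± 0.14 (adjusted p = 0.00146 and 0.000708). Erap1, which trims peptides in the endoplasmic reticulum, rose by 0.96 ± 0.17 and 0.59 ± 0.17 (adjusted p = 0.000201 and 0.00855), the latter not called without replicate 1 of the 24 h (0.39) or replicate 2 of the 0 h group (0.44).

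In TAK1-deleted samples at 24 h Psme2 rose by 0.91 ± 0.14 and H2-M3 changed by -1.07 ± 0.19 (adjusted p = 0.000166 and 0.000608). Psme1, the partner of Psme2, was called at 0.45 ± 0.14 (adjusted p = 0.0255) and Psmb10 at -0.44 ± 0.14 (adjusted p = 0.0265), and neither was called without several of the arrays (adjusted p up to 0.122 and 0.232). Erap1 was the 1 class I gene called between genotypes at 24 h, lower in TAK1-deleted samples (-0.61 ± 0.17, adjusted p = 0.0237), and was not called without replicate 1 of the wild type (-0.41) or replicate 2 of the TAK1-deleted 24 h group (-0.45). With the block 4 were lower there, where 28.8% of all genes were called in either direction.

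Markers of other cells that carry class II molecules moved in the same samples. Of 16 monocyte or macrophage markers, 16 were lower at 24 h in wild type samples, against 20.2% of all genes. In TAK1-deleted samples 11 were lower and 2 higher at 24 h, against 12.7% and 14.9%. The summed level of these markers in wild type went from 38000 to 40200 at 0 h to 4100 to 4650 at 6 h and 6830 to 7290 at 24 h. In TAK1-deleted samples it went from 36000 to 38900 at 0 h to 3870 to 4310 at 6 h and 21900 to 24300 at 24 h. Thus 12 of 16 were higher in TAK1-deleted samples at 24 h and 0 lower, against 7.04% and 5.18% of all genes. H2-Oa and H2-Ob were higher in the same samples, and a link to these markers was not tested.

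Of 8 dendritic cell markers tested, 6 were lower and 0 higher (1 with the block) at 24 h in wild type samples, against 20.2% and 23.6% of all genes. In TAK1-deleted samples 5 were lower and 2 higher, against 12.7% and 14.9%. The medians were -2.44 in wild type and -2.00 in TAK1-deleted samples. Itgax had changed by -3.99 ± 0.16 in wild type (adjusted p = 5.22e-11), and Cd209a, a C-type lectin, by -5.16 ± 0.20 (adjusted p = 4.32e-11). The summed level of all 9 markers on the arrays went from 16100 to 17600 at 0 h to 9070 to 9330 in wild type and from 14100 to 16700 to 12200 to 12800 in TAK1-deleted samples. Much of it came from Ccr7, a chemokine receptor that activated B cells also carry, which was not called in wild type (0.26 ± 0.12, adjusted p = 0.0913) and rose in TAK1-deleted samples (0.63 ± 0.12, adjusted p = 0.000775). Without Ccr7, a choice made after its values were seen, the sum went from 9950 to 10700 at 0 h to 1400 to 1420 at 24 h in wild type and from 7850 to 10600 to 2750 to 2930 in TAK1-deleted samples. Between genotypes at 24 h 3 of the 8 were higher in TAK1-deleted samples and 0 lower, against 7.04% and 5.18% of all genes. They were Siglech, a marker of plasmacytoid dendritic cells (2.07 ± 0.19, adjusted p = 4.27e-06), Flt3, a growth factor receptor (1.34 ± 0.21, adjusted p = 0.00057), and Cd209a (0.67 ± 0.20, adjusted p = 0.0404). Cd209a was not called without any 1 of the 4 arrays or with no filter (adjusted p up to 0.207). With the block 6 were higher, where 28.8% of all genes were called in either direction. H2-Oa and H2-Ob were higher in the same samples, and a link to these markers was not tested.

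Markers of B cells also fell. Of 12 pan B markers, 10 were lower at 24 h in wild type and 8 in TAK1-deleted samples, against 20.2% and 12.7% of all genes. Their summed level went from 92800 to 103000 at 0 h to 57700 to 60100 at 24 h in wild type and from 92300 to 99200 to 64200 to 67400 in TAK1-deleted samples. Cd79a, a chain of the B cell receptor complex, changed by -0.76 ± 0.17 in wild type (adjusted p = 0.00145), and Ms4a1, which encodes CD20, by -0.68 ± 0.10 (adjusted p = 5.07e-05). These 24 h changes were of the size seen for the class II chains, and the courses of Cd79a and Ms4a1 differed from those of the chains. The wild type means of Cd79a and Ms4a1 were 12.62 and 12.03 at 6 h and 12.93 and 12.56 at 24 h. From 6 to 24 h in wild type, 5 of the 12 pan B markers were higher, 2 lower and 5 not called. Of the 11968 genes tested 1080 were higher and 10.4% lower over that step. At 6 h 9 of the 12 pan B markers were already lower in wild type, against 19.1% of all genes, while the class II chains held near their 0 h values. Between genotypes at 24 h 3 of 12 were higher in TAK1-deleted samples and 0 lower, against 7.04% and 5.18% of all genes. The count was smaller with 1 array left out. With the block it was 6, where 28.8% of all genes were called in either direction. No marker list was at 0, since RMA values carry a background. The part of other cells in the results for the class II genes was not tested, and in bulk RNA fewer cells of a type and less RNA per cell cannot be told apart.

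**Figure D4:**
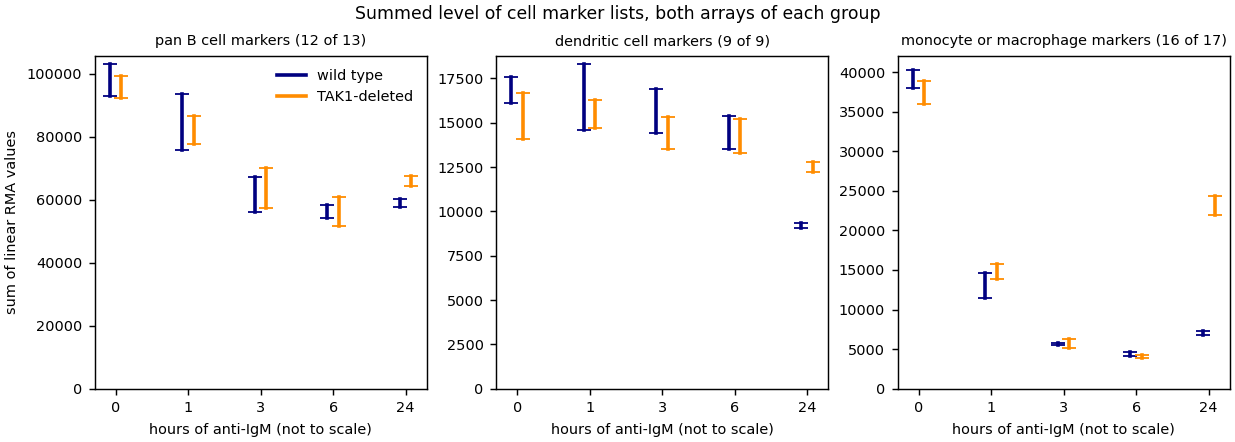
Sum of linear RMA values over pan B cell, dendritic cell and monocyte or macrophage markers against hours of anti-IgM, as the range of the 2 arrays of each group, with wild type in blue and TAK1-deleted in orange. The macrophage sum at 24 h was 21900 to 24300 in TAK1-deleted and 6830 to 7290 in wild type samples, after values of 3870 to 4650 in both genotypes at 6 h.

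Markers of some other cells differed between the genotypes before stimulation, when 1.5% of all genes were higher and 0.819% lower in TAK1-deleted samples. At 0 h 5 of 11 T cell markers, 7 of 10 NK cell markers and 3 of 7 plasma cell markers were lower, and 8 of 8 erythroid markers higher. With 1 array left out, the first 3 counts were the same or smaller. With the block they were 8, 10 and 6, and the share of all genes with it at 0 h is not given. The plasma cell markers were Jchain, the joining chain of secreted IgM and IgA (-5.31 ± 0.14, 39.7-fold lower, adjusted p = 1.39e-12), Derl3, a protein of the endoplasmic reticulum (-1.11 ± 0.25, adjusted p = 0.0254), and Sdc1, which encodes CD138 (-0.56 ± 0.14, adjusted p = 0.0395). Derl3 was not called without replicate 1 of the wild type or replicate 2 of the TAK1-deleted 0 h group, nor Sdc1 without any 1 of the 4 arrays or with no filter. At 24 h 7.04% of all genes were higher and 5.18% lower in TAK1-deleted samples. Of the neutrophil markers 13 of 14 were higher then, and of the T cell markers 4 of 11. The T cell count was smaller with 1 array left out. With the block it was 8, where 28.8% of all genes were called in either direction. Of the plasma cell markers 1 was higher and 1 lower at 24 h, and 3 and 2 with the block. At 0 h the members differed between genotypes by no more than 0.10.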

How the data were processed

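The 20 samples were hybridised to Affymetrix Mouse Gene 1.0 ST arrays. Per the submitters' processing notes the authors used RMA and the Affymetrix Expression Console (1.0), and the deposited values are log2 RMA values. Build and annotation of the probe sets: not given in the sources used here. The values were used as deposited (35556 probe sets, 3.64 to 14.68, array medians 7.37 to 7.52). RMA values keep a background, so folds of dim genes can be understated.

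Symbols came from the platform annotation: 21789 probe sets have 1 symbol, 1621 several and 12146 are not listed. Probe sets reaching the median of all values (7.45) on at least 2 arrays and carrying 1 symbol were kept, with the brightest on average for a gene with several, which left 11968 genes. A linear model of the 10 groups was run with limma (3.58.1, under R 4.3.3) over 20 contrasts, with eBayes moderation by an intensity trend and 10 residual degrees of freedom, two-sided tests and a Benjamini-Hochberg adjusted p below 0.05 within a contrast as the call. The script was tested on simulated data. The number of arrays limits the precision, and the median standard error was 0.161.

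Replicate numbers come from the labels' sample descriptions. Deviations of same-numbered arrays from their group means correlated at r of 0.191 to 0.769 (median 0.535) over all 45 pairs of groups, so the numbers pair the samples, and fits with the number as a block are given where a member's call changes or a list's printed count moves by over 1.5 times. Block counts without a block share of all genes beside them are not read as results about a list. Replicates of a group correlated at r of 0.979 to 0.994 across genes.

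The members and lists were chosen with earlier results of these data known. Members are given in every contrast as values, ranges or plotted points. Of the lists of regulators, processing and class I genes, up to 4 called genes with the largest change in each of 5 contrasts were named, and 5 genes of like pattern for each of the 2 profiles. Rfxank, Rfxap, the NF-Y genes, Prdm1, Ccr7, Siglech, Flt3, Cd209a, Jchain, Derl3, Sdc1, Cd79a, Ms4a1 and Itgax as a marker were named after their values were seen. Alternatives were the block, no filter and a stricter filter on dim probe sets, no intensity trend, quantile normalization, the mean of a gene's probe sets and leaving out each array. A fit of all probe sets was added after the values were seen and supplies the values of the probe set shared by H2-DMb1 and H2-DMb2. Alternatives for the counts over lists were added then too. Promoters are RefSeq sequences of GRCm38.p6.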

Additional observations from a re-analysis of the deposited data

Results flagged for a closer look

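Results whose effect differed between the genotypes by a direct test in limma, with 2 arrays per group, were taken for a closer look. The change of H2-Ob from 0 h to 24 h was 0.80 ± 0.14 smaller in TAK1-deleted than in wild type samples (adjusted p = 0.0015), and its step from 6 h to 24 h was 0.67 ± 0.14 smaller (adjusted p = 0.00945). The change of H2-Oa from 0 h to 24 h was 0.94 ± 0.28 smaller (adjusted p = 0.0489). Between the genotypes at 24 h the level of H2-Oa was higher by 0.83 for replicate 1 and by 0.91 for replicate 2, and that of H2-Ob by 0.67 and 0.78.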

How the results depend on the processing

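Of 1920 values of the 8 members under the alternatives, 1754 kept their direction and their side of the threshold, 47 lost a call, 26 gained one, 93 changed sign without a call on either side, and 0 reversed. With the replicate block 3 instead of 1 members were called in wild type at 1 h, 2 instead of 1 in TAK1-deleted samples at 1 h, 4 instead of 2 between genotypes at 24 h and 4 instead of 1 for the difference in the step from 6 to 24 h. The share of all genes called moved too, from 12.2% to 28.8% between genotypes at 24 h and from 3.87% to 10.6% for the step. Shares with the block at 1 h are not given here. The added calls are therefore not read as a result about the members. The block changed no call of a member other than those given with the results. For the genotype difference in the change at 24 h, 1 member instead of 2 was called with no filter, the stricter filter, no intensity trend or all probe sets in one fit.

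With 1 array left out, the members called were 1 to 2 in wild type at 1 h, 0 to 1 in TAK1-deleted samples at 1 h, 1 to 2 between genotypes at 24 h, 1 to 1 for the difference in the change at 24 h and 0 to 2 for the difference in the step. A group left with 1 array was assumed to vary like the others. Counts over all genes also moved. Between genotypes at 24 h they were 1462, 3442 with the block, 2379 with quantile normalization and 699 to 1172 with 1 array left out. Quantile normalization also called H2-Eb1 higher at 3 h, by 0.21 in wild type and 0.24 in TAK1-deleted samples, H2-Aa higher at 3 h in TAK1-deleted samples (0.15), Cd74 lower at 6 h in both genotypes (-0.25 and -0.27) and Ciita higher between genotypes at 24 h (0.40). The cause was not tested.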
